A study of Sus scrofa with 8 samples.

Results

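The genes described here are those of the respiratory chain and the ATP synthase, read in whole blood of miniature pigs on 2 diets. The members are the array probes whose description names NADH dehydrogenase, succinate dehydrogenase, ubiquinol-cytochrome c reductase, cytochrome c oxidase or ATP synthase, together with the 3 probes that carry the gene name COX8H. The gene names MT-ND2 and MT-ND6, which the choice also allowed, stand on 0 probes. This gave 174 of 43603 probes. Peripheral blood came from 8 female Clawn miniature pigs aged 8 to 9 months, labelled as conventional animals, with 1 array per animal. The 4 controls ate standard dry feed, and the 4 SDW animals ate standard dry feed, water and shochu distilled water (SDW) mixed in equal weights; shochu is a Japanese distilled spirit. Feeding had lasted 12 weeks by the design text. The descriptions of single animals instead put it at 14 weeks in both replicates numbered 1, 15 in those numbered 2, 16 in those numbered 3 and 17 in those numbered 4, so time and replicate number go together within a diet.

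The respiratory chain lies in the inner mitochondrial membrane. Complex I (NADH dehydrogenase) and complex II (succinate dehydrogenase) pass electrons to ubiquinone, complex III (ubiquinol-cytochrome c reductase) passes them to cytochrome c, and complex IV (cytochrome c oxidase) passes them to oxygen. Complexes I, III and IV pump protons out of the matrix, and the ATP synthase (complex V) makes ATP as protons flow back. Most subunits are encoded in the nucleus and a small set, among them ND2, ND6, COX2, COX3 and ATP6, in mitochondrial DNA. In blood, mature mammalian red cells lack mitochondria, so transcripts of these complexes come mainly from white cells and platelets.

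Only part of the members are what the label says. By their descriptions, 38 probes for 26 genes are either pig transcript records or assembled consensus sequences that match a mammalian subunit over the complete protein or at least 30% of it, and these are called named subunits. A further 12 probes match a mammalian protein over 8% to 22% of its length and are called short mammalian matches. The vacuolar proton pump, a different enzyme of acidic compartments whose description also holds the words ATP synthase, accounts for 4 probes. The other 120 probes are consensus sequences named after a protein of an insect, worm, fungus, plant, microbe or other distant species, over a median of 7% of that protein and at most 25%. Such a name does not identify a pig gene, so these 120 are described as a group only and are not called respiratory chain genes. The kinds were set from the descriptions after the descriptions had been seen.

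The probes of COX8H, the heart-type subunit 8 of cytochrome c oxidase in the pig, carry the largest differences among the named subunits, and their letters are shown because the 3 are not separate measurements. Each line gives 30 of the 60 bases of a probe as the array design lists them, with capitals for the run that all 3 probes hold.
COX8H probe 1: tccgccgCACTGCTCCAGGCAGACTGGAGA
COX8H probe 2: cgccgtCACTGCTCCAGGCAGACTGGAGAC
COX8H probe 3: ctccgccgtCACTGCTCCAGGCAGACTGGA
The run is 44 bases long in full, and the pairs share 47, 44 and 50 bases, so the 3 probes read nearly the same stretch of one transcript and count as 1 measurement in effect. SDHA, the flavoprotein subunit that oxidises succinate, is shown for the opposite reason: its probes share at most 6 bases with each other and read separate stretches. Both of the following come from pig transcript records.
SDHA probe 1: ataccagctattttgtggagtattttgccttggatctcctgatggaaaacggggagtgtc
SDHA probe 2: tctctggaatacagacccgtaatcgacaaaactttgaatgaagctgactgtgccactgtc

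A probe entered the test when its spot cleared the scanner software's background limit (well above background) in 4 or more animals. Of the 174 probes, 85 did so, and 76 cleared that limit in no animal. Among all probes 39.8% were kept. Among the named subunits 30 of 38 (78.9%) were kept, for 21 genes, against 45 of 120 (37.5%) of the probes named after distant species. Levels are log2 spot signals after subtraction of each array's own 75th percentile, differences as SDW minus control on the same log2 scale, and errors as SD over animals (n = 4 per diet) or SE of the difference from the limma fit. A transcript read in whole blood can be lower because fewer cells hold it or because each cell holds less, and bulk RNA cannot tell these apart.

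No member passed the test between the diets. At an adjusted p under 0.05 (limma, Benjamini-Hochberg over all 17355 kept probes) the count was 0 of 85 members, and 0 of all kept probes (0.0%). At an unadjusted p under 0.05 there were 4 of 85 members, all higher in SDW animals, where 0.928% of all kept probes were past this value and higher and 1.45% were past it in either direction; 3 of the 4 are the overlapping COX8H probes and the other is ATP5B. Read as genes, this is COX8H and ATP5B, and the ATP5B probe was kept only through the SDW animals, since it was not well above background in any control. COX8H is the gene in this count that was measured in both diets. It is a member by its name, and members were chosen with earlier results of these data known. By mean, 62 of the 85 members were higher in SDW animals, against 52.9% of all kept probes. The median difference of the members was 0.14 and that of the 30 named subunit probes 0.12, beside 0.02 over all kept probes, and the smallest adjusted p among the members was 1.00. With each animal left out in turn, the median ran from 0.070 to 0.20 over the members and from 0.051 (without control 1) to 0.23 (without control 3) over the named subunit probes. Of the 21 named subunit genes, 18 had a difference within 0.3 of 0, and COX8H, ATP5B and COX7A1 were the 3 beyond it.

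Complex IV held the members farthest from 0. In COX8H probe 2, the probe of highest mean level, controls 1 to 4 read -0.73, 0.17, -0.19 and -0.45, and SDW animals 1 to 4 read 1.497, 0.27, 0.34 and 0.51. Every SDW animal was above every control, SDW 2 and control 2 being the nearest pair, and SDW 1 stood above all other animals. The difference was 0.95 ± 0.33 (SE), with an unadjusted p of 0.0158 and an adjusted p of 1.00 from limma. The diets did not overlap in COX8H probe 1 either, where the difference was 0.97 (unadjusted limma p 0.0126), and overlapped in probe 3, where it was 0.86 (unadjusted limma p 0.0285). Such separation, with all SDW animals above all controls, was found for 2 of the 85 members, both of them COX8H, and for 0.599% of all kept probes.

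The COX8H difference had the same sign on each of the 3 slides that carried the arrays: 0.50 within slide 1 (SDW 2 and SDW 3 against control 3), 1.64 within slide 2 (SDW 1 against control 2 and control 4) and 1.24 within slide 3 (SDW 4 against control 1). A sign shared by the 3 slides was seen in 27.7% of all kept probes. With slide as a fixed block in the limma fit the difference was 1.11, with an unadjusted p of 0.00271 and an adjusted p of 0.731. Without SDW 1 it was 0.67. With normexp background correction, which adds an offset and so draws dim signals together, it was 0.48 with an unadjusted limma p of 0.0393.

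COX7A1, the heart and skeletal muscle form of subunit 7a, read 1.87, 1.41, 1.45 and 0.84 in controls 1 to 4 and 1.97, 1.91, 1.67 and 1.91 in SDW animals 1 to 4. Control 1 lay among the SDW animals and the other controls below them, so the diets overlapped. The difference was 0.48 ± 0.26 (SE), with an unadjusted limma p of 0.0929, and it was 0.63 without control 1 and 0.29 without control 4. COX5A, a subunit that all tissues share, read 2.91, 2.58, 2.61 and 2.17 in controls and 2.83, 2.99, 2.49 and 2.86 in SDW animals. The diets overlapped there too, with a difference of 0.23 ± 0.24 (SE) and an unadjusted limma p of 0.363. So the 3 measured nuclear genes listed under complex IV were all higher by mean in SDW animals. The 2 tissue-restricted forms were those with the larger estimates, none past the test. NDUFA4, now known as a component of this complex but listed under complex I by its description, differed by 0.12 and 0.11 in its 2 probes.

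Markers of blood cells also differed by mean between these animals. No marker called at an adjusted p under 0.05 was found in any of the cell type lists given here. The 3 measured genes of the eosinophil and basophil list (of 8 listed: CCR3, MS4A2 and ALOX15) were all higher by mean in SDW animals, with a median difference of 0.82. Their mean level relative to each gene's own average was -1.36, 0.08, 0.03 and -0.30 in controls 1 to 4 and 0.94, 0.52, 0.20 and -0.12 in SDW animals 1 to 4. SDW 1 was highest and control 1 lowest both in COX8H probe 2 and in this list. The other animals did not follow the same order: SDW 4, second highest in the probe, was the lowest SDW animal in the list, and SDW 2, the lowest SDW animal in the probe, was second highest in the list. The summed signal of the list, in units of the array's 75th percentile, ran from 30.1 to 68.4 in controls and from 55.3 to 137 in SDW animals. Of the neutrophil genes, LTF differed by -0.76 (unadjusted limma p 0.209), TREM1 by -0.87 (p 0.104) and NCF1 by -0.76 (p 0.299), all lower by mean in SDW animals. Summed platelet markers (4 of 8 listed) ran from 74.4 to 124 and from 77.8 to 122, and monocyte markers (5 of 8) from 52.3 to 112 and from 59.6 to 91.6. The monocyte genes went both ways, 3 higher and 2 lower by mean in SDW animals. Among them CCR2 differed by 0.88 (unadjusted limma p 0.00474) and CD14 by -0.73 (p 0.170). T cell markers (5 of 9) ran from 38.7 to 70.1 in controls and from 55.7 to 86.5 in SDW animals. By mean, 3 of these T cell genes were higher in SDW animals and 2 lower (CD3E and CD3G, each -0.31). Their mean level relative to each gene's own average differed by -0.0079. The 12 erythroid markers had 0 kept probes under these symbols, and the cytotoxic list rested on GNLY and KLRK1, both lower by mean in SDW animals with a median difference of -0.64. The part of these cell types in the COX8H and COX7A1 differences was not tested.

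In complex V, the catalytic beta subunit ATP5B had the smallest p, and its probe read near the limit of detection. The probe, a consensus sequence matching 38% of the protein, read -2.14, -2.60, -2.65 and -2.68 in controls 1 to 4 and -1.99, -2.29, -1.89 and -1.59 in SDW animals 1 to 4. Whether the low level is that of the transcript or of this probe was not tested. The background limit was cleared by 0 of 4 controls and by 4 of 4 SDW animals, so the probe was kept only through the diet in which it was higher. The measured means were -2.51 and -1.94. With each control set to no less than the lowest signal well above background on its array, the control mean was -2.50. Against this the SDW mean was 1.48-fold higher (adjusted limma p 1.00). That is about the measured difference, so the figure sets no lower limit. The values overlapped, since control 1 lay above SDW 2. The unadjusted limma p of 0.0384 became 0.737 with normexp background correction, where the difference was 0.04.

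The remaining 7 measured genes of the ATP synthase lay close to 0. ATP5G1, which encodes subunit c of the rotating membrane ring, read 5.72, 6.76, 6.81 and 6.32 in controls and 6.61, 6.92, 6.73 and 6.50 in SDW animals, a difference of 0.28 ± 0.28 (SE; unadjusted limma p 0.340). Control 1 was the low value, and without it the difference was 0.05. ATP5G2, another gene for the same subunit c protein, differed by 0.12. ATP5S, a coupling factor, read -0.60, 0.69, 0.83 and 0.50 in controls and 1.02, 0.91, 0.51 and -0.28 in SDW animals. In ATP5S the low animals of both diets, control 1 and SDW 4, are the pair on slide 3, and the diets differed by 0.18 ± 0.39 (SE; unadjusted limma p 0.650).

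ATP5O, a subunit of the stalk that holds the catalytic head, read 3.08, 3.86, 4.38 and 3.87 in controls and 3.57, 4.44, 3.62 and 2.93 in SDW animals, a difference of -0.16 ± 0.37 (SE; unadjusted limma p 0.670). Here too control 1 and SDW 4 were the lowest animals of their diets. Another named probe of ATP5O, matched over 82% of the protein, was not well above background on any array. The small membrane subunits ATP5I, ATP5L and ATP5J2 differed by -0.12, 0.07 and 0.02. For ATP5J2 the other probes gave -0.07 and -0.30, and for ATP5I the other probe gave -0.01. The signs of ATP5J2 therefore differ among its 3 kept probes; the 2 that share 25 bases lie within 0.1 of each other, and the third, well above background on 2 arrays of each diet, shares 8 bases with them.

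Complex I was measured through 6 nuclear genes and ND6. NDUFB6, an accessory subunit of the membrane arm, read 2.21, 2.84, 2.78 and 2.62 in controls and 3.16, 3.22, 2.58 and 2.23 in SDW animals, a difference of 0.19 ± 0.29 (SE; unadjusted limma p 0.532). The highest animals were SDW 1 and SDW 2 and the lowest control 1 and SDW 4. NDUFB8, also of the membrane arm, read 6.51, 6.51, 6.90 and 6.28 in controls and 6.90, 6.85, 6.41 and 6.51 in SDW animals, so the diets spanned nearly the same range, with a difference of 0.12. NDUFA4, listed under complex I by its description and now known as a component of cytochrome c oxidase, had 2 probes that share at most 5 bases and gave 0.12 and 0.11. NDUFS5, an accessory subunit, read 6.80, 6.79, 7.56 and 6.42 in controls and 7.18, 6.89, 6.56 and 6.39 in SDW animals, the only complex I gene lower by mean in SDW animals (-0.14 ± 0.30, SE; unadjusted limma p 0.658). Control 3 was its highest animal, and without control 3 the difference was 0.09. NDUFB4 and NDUFC1 differed by 0.09 and 0.10. NDUFB6 and NDUFB4 each had another named probe that was not well above background on any array.

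NDUFA7, another accessory subunit, was outside the test because it was well above background in only 3 animals. Its probe is shown by its first 30 bases because the levels fall into a detected and an undetected set of animals.
NDUFA7 probe: attccctctgggcagaacgtgacctcattt
The levels were 0.82 in control 3, 0.73 in SDW 1 and 1.42 in SDW 3, and -3.08, -4.53 and -3.999 in controls 1, 2 and 4 and -3.90 and -4.27 in SDW 2 and SDW 4, which were not well above background. The detected animals comprised both diets and slides 1 and 2, and each of those slides also held undetected animals. NDUFA7 was chosen for description after its values were seen.

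In complex II all 3 measured genes were higher by mean in SDW animals when read from the probe of highest mean level. SDHB, the iron-sulfur subunit, read 5.95, 6.17, 6.57 and 5.89 in controls and 6.61, 6.70, 6.30 and 5.89 in SDW animals, a difference of 0.23 ± 0.26 (SE; unadjusted limma p 0.408), and its other kept probe gave 0.13. SDHD, a membrane anchor, read 1.76, 2.49, 2.61 and 2.53 in controls and 2.70, 2.69, 2.32 and 2.23 in SDW animals, a difference of 0.14 ± 0.26 (SE; unadjusted limma p 0.612). Control 1 was low and the other controls lay within the range of the SDW animals. Without control 1 the SDHD difference was -0.06.

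The SDHA probes did not give 1 direction. SDHA probe 1 read -1.05, -1.70, -0.79 and -1.18 in controls and -2.40, -2.004, -1.08 and -1.02 in SDW animals, a difference of -0.45 ± 0.36 (SE; unadjusted limma p 0.243). SDW 1 and SDW 2 were the lowest animals in it. SDHA probe 2 differed by -0.05, and a consensus probe, the one of highest mean level, read 5.23, 5.01, 5.63 and 4.57 in controls and 5.16, 5.51, 5.19 and 5.10 in SDW animals and differed by 0.13. The estimates thus span -0.45 to 0.13 for 1 gene, and the mean of its 3 probes differed by -0.12.

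Complex III was represented by UQCR10, a small subunit, alone, and its probe was not well above background on any array. Of 6 probes named after mitochondrially encoded subunits, 2 were kept. ND6, matched over 31% of the protein, read 2.52, 2.23, 1.12 and 2.04 in controls and 2.32, 1.60, 2.16 and 2.92 in SDW animals, a difference of 0.27 ± 0.37 (SE; unadjusted limma p 0.478). Control 3 was the low animal, and without it the difference was -0.01. ND2, a short match over 16% of the protein, read 1.16, 1.74, 2.03 and 1.28 in controls and 1.94, 2.16, 2.12 and 1.38 in SDW animals, a difference of 0.35 (unadjusted limma p 0.251). The diets overlapped in both. COX2, ATP6 and both COX3 probes were not well above background on any array, so for those subunits these probes gave no measurement.

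Slide went with more of the spread than diet did. The slide 3 arrays, control 1 and SDW 4, were also scanned on another day than those of slides 1 and 2. Slide and scan day therefore cannot be told apart for these arrays. In the 30 named subunit probes, slide took a median of 56.8% of the variance over animals and diet a median of 5.83%. Over all kept probes the medians were 44.7% and 4.97%. Slide divides the animals into 3 sets and diet into 2, so slide would take the larger share even where neither mattered. Read once per gene, the share with slide had a median of 73.1% over the 8 complex V genes, 57.5% over complex II, 39.9% over complex I with ND6, and 28.0% over the 3 complex IV genes, where COX8H had 10.12%. The mean level of the 8 complex V genes, each relative to its own average, was 0.30, 0.23 and 0.10 in the slide 1 animals control 3, SDW 2 and SDW 3, and -0.42 and -0.22 in the slide 3 animals control 1 and SDW 4. The slide 2 animals control 2, control 4 and SDW 1 lay between, at 0.02, -0.14 and 0.13. So the 8 animals order by slide in complex V apart from SDW 1, which lay above SDW 3, while control 3 had the highest value and control 1 the lowest, both on the same diet.

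In complex IV the mean of the 3 genes was -0.15, -0.11, -0.21 and -0.64 in controls 1 to 4 and 0.61, 0.23, 0.01 and 0.26 in SDW animals 1 to 4, every SDW animal above every control. This order rests on COX8H, which the choice of members takes by name. That choice was made with earlier results of these data known, so the separation is not independent support. The mean of COX7A1 and COX5A alone was 0.23, -0.16, -0.13 and -0.65 in controls and 0.25, 0.30, -0.07 and 0.23 in SDW animals, which overlap. Its within-slide differences were 0.24, 0.65 and -0.0026. The within-slide differences of the mean over all 3 genes were 0.32, 0.98 and 0.41, against -0.18, 0.44 and -0.09 for the 6 nuclear complex I genes, -0.15, 0.38 and 0.09 for complex II and -0.14, 0.19 and 0.20 for complex V. The sign was shared by the 3 slides in 7 of the 21 genes, where it was shared in 27.7% of all kept probes. In the fit that blocks on slide, 9 of the 85 members were at an unadjusted limma p under 0.05 where 6.6% of all kept probes were. All 9 were higher in SDW animals, while the 6.6% counts both directions. Of the 9, 3 were the overlapping COX8H probes, which are not separate measurements. Another was the ATP5B probe, kept only through the SDW animals, and the other 5 were probes named after distant species.

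The short mammalian matches were kept in 7 of 12 cases, and all 7 differences were above 0, from 0.11 to 0.35 with a median of 0.19. Over all kept probes 52.9% were higher by mean in SDW animals. The 7 are not all separate readings, since the NDUFB5, ATP5S and COX6B2 matches share a word described below and varied together. Also among the 7 were COX11 (0.19), which serves copper insertion into cytochrome c oxidase, and COX15 (0.28), which makes its heme A. The smallest unadjusted limma p of the 7 was 0.251, that of ND2. The 3 kept probes of the vacuolar pump differed by 0.02 for ATP6V1E1, 0.19 for ATP6V1G1 and 0.31 for ATP6V1C1. Of the 45 kept probes named after distant species, 30 were higher and 15 lower by mean in SDW animals, from -0.64 to 0.83, with a median of 0.16 and 0 at an unadjusted limma p under 0.05. The probes that the label does not cover thus had medians no lower than that of the named subunits.

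Several members with weak names share sequence with many other probes. A run of 16 bases was shared with at least 5 other probes of the array in 7 of the 174 members (4.02%), none of them a named subunit, against 1.23% of all probes. The word TCCATATGC, searched on both strands and picked after the sequences were seen, lies in 5 members, all kept, and in 99 of 43603 probes (0.227%). The 5 are shown by 30 bases around it, in capitals, since they carry the names of 3 subunit genes and of 2 proteins of distant species.
NDUFB5, short match: cttgagaactTCCATATGCtgcaggcatgg
ATP5S, short match: cctcggccttgggaaccTCCATATGCcatg
COX6B2, short match: aactTCCATATGCtgggggtgcagccataa
Distant name 1: agccgcacccTCCATATGCcgtgggcacag
Distant name 2: cccttgggaatcTCCATATGCcgtgggagt
Whether these probes read a repeated element of the pig genome was not tested.

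The 5 probes varied together across animals. The NDUFB5 match read 7.04, 6.62, 6.49 and 5.68 in controls 1 to 4 and 6.80, 6.34, 6.69 and 7.01 in SDW animals 1 to 4. Control 1 and SDW 4, the slide 3 animals, were high and control 4 low. The ATP5S match read 10.04, 9.38, 9.42 and 8.95 in controls and 9.39, 9.17, 9.69 and 9.97 in SDW animals, the same order at both ends. The other ATP5S probe, matched over 82% of the protein, was lowest in those same slide 3 animals, so the 2 probes that carry this gene's name ran opposite ways. Averaged over the 5 members, the level relative to each probe's mean was 0.52, 0.02, -0.24 and -0.70 in controls and 0.22, -0.29, 0.02 and 0.46 in SDW animals. The 76 kept probes of the array that hold the word gave 0.46, 0.08, -0.23 and -0.55 in controls and 0.19, -0.29, 0.00 and 0.33 in SDW animals, nearly the same values in each animal, although they include the 5 members.

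Other genes of mitochondrial energy metabolism did not pass the test either. Of 17 listed genes of the tricarboxylic acid cycle, which supplies the chain with NADH and succinate, 11 were measured, 7 higher and 4 lower by mean in SDW animals, with a median difference of 0.01. The smallest unadjusted limma p values there were those of DLAT, a subunit of pyruvate dehydrogenase (0.29, p 0.215), and CS, citrate synthase (-0.22, p 0.459). Of 22 listed electron carriers and membrane carriers, 7 were measured, 2 higher and 5 lower, with a median of -0.03; VDAC3 and VDAC1, channels of the outer membrane, differed by -0.32 (p 0.513) and 0.13 (p 0.623). Of 18 genes of mitochondrial transcription and biogenesis, SIRT1, a deacetylase, differed by 0.38 (p 0.153) and TFAM, which packages mitochondrial DNA, by -0.13 (p 0.722). Of 12 genes of turnover and dynamics, ATPIF1, an inhibitor of the ATP synthase, was the one measured and differed by -0.20 (p 0.680). The 36 listed assembly factors had 0 probes under their symbols.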

How the data were processed

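The deposited scanner files hold spot intensity on a linear scale; per the file headers the software was Agilent Feature Extraction, release 10.1.1.1, whereas the submitters' processing notes name release 9.5.3.1. The processed signal is background-subtracted within the array, per the file headers, and not normalized between arrays. Per the labels' protocols, RNA came from PAXgene blood and was labelled with Cy3 after linear amplification. The authors' value table of the same arrays, also intensity values, served as an alternative. Its columns match scanner files of the same diet but mostly of another replicate number, so animal names here follow the scanner files.

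Spots for quality control or with an outlier mark were dropped, repeat spots averaged, and each array's 75th percentile subtracted on the log2 scale. Probes well above background on at least 4 of 8 arrays were kept (17355 of 43603); per array this held for 35.2% to 43.5% of probes, and 0 were saturated. Precision is limited by there being 8 arrays. SDW was set against control by limma 3.58.1 under R 4.3.3 (lmFit and eBayes without covariates, two-sided), tested on simulated data first. The simulated arrays held no slide effect, so that check cannot tell how the fit performs where slide matters. The p-values of this fit weigh each difference against the spread between arrays within a diet. Each animal had its own array and the fit held no slide term, so that spread mixes animals, arrays, slides and scan days.

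Members and lists were chosen with earlier results of these data known. Named are all mitochondrially encoded members and COX8H, up to 4 kept nuclear genes of smallest p per complex, members whose diets do not overlap, genes whose probes disagree, and up to 2 genes per list. The rule was applied to named subunits. Genes outside it, given for completeness, are NDUFA7, NDUFB4, NDUFC1, ATP5G2, ATP5I, ATP5L, UQCR10 and the short and vacuolar matches. Where a gene has several kept probes, the one with the highest mean is used. Slide is taken from the files. Of the cell type marker lists, some are not reported here. Alternatives were background correction, scaling, filters, slide and replicate blocks, the authors' value table, and arrays left out. Only 2936 probes have a gene symbol, and no genome was used, so positions are not given.

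To see whether replicate numbers pair animals, deviations from the mean of each diet were correlated between same-numbered animals, giving -0.17, 0.11, 0.33 and -0.38 for numbers 1 to 4. Not all exceed 0.1, so the numbers were not treated as pairs. The numbers are those of the scanner files, and the value table mostly gives the same arrays other numbers. The check therefore cannot settle whether animals were paired, and which feeding weeks belong to which array is equally unsettled.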

Additional observations from a re-analysis of the deposited data

Results flagged for a closer look

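In groups of 4 animals, 44 groups of levels (the 21 named subunit genes and ND2, in each diet) were searched for 1 animal far from the others, and 2 were found; chance alone flags about 1 in 20 such groups. SDHD in control 1 read 1.76, with the nearest control at 2.49. ATP5B in control 1 read -2.14, with the nearest control at -2.60; no control was well above background in it. Control 1 is on slide 3 with SDW 4.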

How the results depend on the processing

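No member passed an adjusted p of 0.05 (limma) under any of the alternatives run, and the 3 COX8H probes, COX7A1 and ATP5B stayed higher by mean in SDW animals under all of them. Over all kept probes the count at an adjusted p under 0.05 was 0 except without the 2 arrays of slide 3, where it was 1, which is not a member. The count at an unadjusted p under 0.05, 251 in the fit reported, was 162 with normexp background correction, 165 when all 8 arrays had to be well above background, 823 without a filter, 1145 with slide as a fixed block, 632 with slide as a random block, 542 without slide 3, and 179 to 518 with each animal left out. Among members it was 9 with slide as a fixed block and 2 to 4 with each animal left out (2 without control 4 and 2 without SDW 1), and among named subunit probes 2 with normexp and 2 to 4 with each animal left out. The median difference was -0.050 over the 174 members without a filter, when the median of all probes was -0.155; of complex IV, where 3 of the 5 probes are the overlapping COX8H probes, it was 0.86 in the fit reported (0.48 when read once per gene), 0.37 with normexp and 0.56 to 1.02 with each animal left out. Of complex V it was 0.02 in the fit reported, -0.15 with slide as a fixed block, and -0.18 (without control 1) to 0.19 (without control 3) with each animal left out. With the replicate number as a block, 239 probes and 3 members were at an unadjusted limma p under 0.05 and 0 at an adjusted one. COX8H probe 2 then had an unadjusted limma p of 0.0398 and ATP5B of 0.0802. The numbers were not treated as pairs, and the check made cannot settle whether they are.

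Differences near 0 changed sign. SDHA, read from its consensus probe, gave -0.0047 with slide as a fixed block and -0.12 as the mean of its probes, and SDHA probe 2 gave 0.027 without slide 3. ATP5J2 gave -0.0034 with normexp, -0.15 and -0.081 with slide as a fixed and a random block, -0.077 without slide 3 and -0.12 as the mean of its probes, and its dimmest probe gave 0.058 with normexp. The other ATP5I probe gave 0.012 with normexp and 0.023 with median scaling. With each animal left out in turn, the differences ran from -0.015 to 0.49 for ND6, -0.016 to 0.23 for NDUFA4, -0.29 to 0.087 for NDUFS5, -0.00022 to 0.17 for NDUFB4, -0.014 to 0.25 for NDUFC1, -0.060 to 0.22 for SDHD, -0.054 to 0.30 and -0.20 to 0.13 for SDHA (consensus probe and probe 2), -0.14 to 0.46 for ATP5S, -0.43 to 0.074 for ATP5O, -0.28 to 0.10 and -0.21 to 0.25 for the ATP5I probes, -0.063 to 0.27 for ATP5G2, -0.0028 to 0.18 for ATP5L, and -0.18 to 0.30, -0.25 to 0.19 and -0.51 to 0.071 for the ATP5J2 probes. The cause of these changes was not tested. Members not well above background, among them UQCR10, COX2, COX3 and ATP6, have no level here.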
